A study of Homo sapiens with 15 samples.

Results

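The genes described here make, carry, sense and break down prostaglandins, and they were read in 15 established lines of non-small-cell lung cancer (NSCLC) on 1 array per line. They are PTGS1, PTGS2, PTGES, SLCO2A1, PTGER2, PTGER4, HPGD and PTGR1, and all 8 were found among the 18132 genes measured. The genes were chosen by their place in the pathway, and HPGD was selected on its measured level in lines that survived radiation well against lines that did not, so its relation to radiation survival is given as a description with no test. Each gene was read on the probe set annotated to it alone with the highest mean over the lines, and its other probe sets served as a check. The lines were A549, Calu1, Calu3, H1437, H1650, H1781, H1975, H2009, H2228, H226, H3122, H358, H460, H520 and HC827 (the name the labels give to HCC827). All were untreated tumour lines, no normal lung sample was analysed here, and the methods describe H226, H520 and Calu1 as squamous, H1437 and H358 as bronchioloalveolar, H460 as large cell and the others as adenocarcinoma. The labels name a single medium, DMEM with serum, for every line, whereas the methods name several media. Neither the labels nor the files give groups of lines or repeat cultures, so the spread reported is the spread between lines, and the spread between cultures of a line was not measured.

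Prostaglandins are short-lived lipid signals made from arachidonic acid, which phospholipases such as PLA2G4A release from membranes. The cyclooxygenases PTGS1 (COX-1) and PTGS2 (COX-2) turn it into prostaglandin H2, and PTGES then makes prostaglandin E2, which acts on cells through receptors such as PTGER2 (EP2) and PTGER4 (EP4). The signal is ended when the carrier SLCO2A1 takes the prostaglandin into the cell, HPGD (15-hydroxyprostaglandin dehydrogenase) oxidises it and PTGR1 reduces the product. In the lung and other epithelia COX-2 is known as an inducible enzyme of inflammation and tumour growth, and HPGD as the enzyme that opposes it.

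The deposited values are log2 intensities made with RMA, which equalises the distributions of the arrays and compresses low signals. Array medians were 5.88 to 5.93 and lower quartiles 4.16 to 4.34. A gene is called on in a line where its value lay above the median of that array, off where it lay under the lower quartile, and between otherwise. Of 100 ERCC control probe sets, 96 lay under the lower quartile on every array, so a value under that limit is in the range of probes with little or no target, but such a value does not show that the RNA was absent. On some arrays 3 of the ERCC probe sets lay above the median. Being on, above all by a small margin, thus does not by itself show that a gene was expressed. A measure of RNA quality stood apart in a pair of lines: the excess of 3' over 5' signal for actin was 2.09 (log2) in H1781 and 1.90 in H3122, against 0.63 to 1.30 elsewhere. HPGD was off in H1781 and on in H3122, and the part of RNA quality in the levels was not tested. The lines carried their known marks: ERBB2 was highest in Calu3 (14.09), EGFR in HC827 (13.23), FGFR1 in H520 (12.05) and ALK in H2228 (6.26) and H3122 (6.15). The keratins KRT8, KRT18 and KRT19 were on in every line, KRT7 in 14, EPCAM in 13 and CDH1 in 12. Of 5 leukocyte markers, PTPRC was off in all 15 lines and CD3E was on in none, but CD68 was on in 12, CD14 in 2 and LYZ in 1. Of 6 stromal markers, DCN was off in all 15, COL1A2 and PDGFRB were on in none, COL1A1 was on in 5, LUM in 3 and COL3A1 in 1. Of 4 endothelial markers, PECAM1 was on in 15 and VWF and KDR in 13, all with values of 5.75 to 7.18, and CDH5 in none. The summed log2 level ran from 53.6 to 79.0 over the lines for the 6 epithelial markers, 20.6 to 28.1 for leukocyte, 24.2 to 33.7 for stromal and 22.8 to 24.7 for endothelial markers, and the part of these genes in the results was not tested. A level of 1 gene cannot be set against that of another, because probes differ in how strongly they bind.

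In 3 of the 8 genes, HPGD, PTGS2 and PTGER4, at least 1 line was off and at least 1 was on, a pattern that 9.36% of all 18132 genes showed. Since these genes were chosen with their levels known, no more is read from the count. PTGS1 was on in a single line, PTGES in all 15, PTGR1 in 13, SLCO2A1 in 9 and PTGER2 in none. The promoters of HPGD and PTGS2 are shown because these genes carry the widest on-off patterns of breakdown and synthesis. They are taken from RefSeq on GRCh38.p14 and run 5' to 3' on the strand of the gene, from 250 bases before the start site to 50 bases after it. The PTGS2 window is chr1:186680374-186680673 on the minus strand. The HPGD window is chr4:174522439-174522738, also on the minus strand, and is the one of the 2 HPGD windows in the table that lies nearer to the gene body. Capitals mark a match to the core of the cAMP response element (TGACG, or CGTCA on the other strand), the TATA box (TATAAA) or an E-box (CACGTG), searched on both strands, and no matches overlapped in these windows.
PTGS2: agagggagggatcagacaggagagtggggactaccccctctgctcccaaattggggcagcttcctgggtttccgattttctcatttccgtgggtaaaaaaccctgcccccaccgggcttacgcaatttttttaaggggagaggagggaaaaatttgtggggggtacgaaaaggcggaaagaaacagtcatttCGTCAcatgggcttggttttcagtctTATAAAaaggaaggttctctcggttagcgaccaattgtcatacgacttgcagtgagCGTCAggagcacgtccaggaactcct
HPGD: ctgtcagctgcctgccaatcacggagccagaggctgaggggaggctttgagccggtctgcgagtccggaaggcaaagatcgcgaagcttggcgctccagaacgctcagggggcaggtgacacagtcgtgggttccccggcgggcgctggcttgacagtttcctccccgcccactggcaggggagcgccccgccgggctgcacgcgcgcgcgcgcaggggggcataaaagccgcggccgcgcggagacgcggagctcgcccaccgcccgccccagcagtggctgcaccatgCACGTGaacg
The PTGS2 window held 2 cores of the cAMP response element, 1 of them downstream of the start site, and 1 TATA box, which 24.6% and 11.5% of 35116 windows in the table hold at least once. The HPGD window held neither and held 1 E-box, found in 7.26% of windows, downstream of the start site. Its GC content was 71.0% with an observed to expected CpG ratio of 0.901, and in PTGS2 these were 50.7% and 0.637, against medians of 58.7% and 0.579 over all windows. These matches describe the letters only, and 7 of the 8 genes had a window.

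Among the enzymes of synthesis, PTGS1 was on in a single line and PTGS2 had one of the widest ranges of all genes. PTGS1, the cyclooxygenase that most tissues express at a steady level, had a log2 value of 9.46 in H1437 and 4.41 to 4.94 in the other 14 lines. H1437 thus stood alone, 4.51 above the next line, H520. All 4 probe sets of PTGS1 were highest in H1437, at 8.41 to 11.44, and the second of them also placed H2228 above its array median, at 5.95. Without H1437 no line was on.

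PTGS2 ran from 3.0 in H520 to 11.65 in A549, a range of 8.64 that only 0.419% of genes exceeded. The highest lines after A549 were Calu3 (10.96), H1437 (10.62), HC827 (9.95) and H1781 (8.88). A lower set held H3122 (7.42), H2228 (7.26), H1975 (6.64), H358 (6.22) and Calu1 (6.17), which were also on. H2009 (5.71), H460 (4.42) and H226 (4.31) lay between the limits, and H1650 (3.53) and H520 were off. The levels spread without a clear break, the widest gap being 1.45, between H1781 and H3122. The other 2 probe sets followed the brightest, with r = 0.98 and r = 0.93 over the 15 lines, but were dimmer and put 6 and 4 lines above the array median in place of 10. The 4 lines on in all 3 probe sets were Calu3, H1437, HC827 and A549.

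PTGES, the inducible synthase of prostaglandin E2, averaged 9.12 ± 1.58 (SD, n = 15 lines). H1437 was highest at 12.09, the median was 9.06, and H520 was lowest at 5.95, close to its array median of 5.93. PTGES was on in every line by all 3 of its probe sets. H1437 was the line with PTGS1, PTGS2 and PTGES all on and HPGD off. H1650 had a high PTGES level, 10.52, with both cyclooxygenases not on. All 10 lines with PTGS2 on also had PTGES on, which follows from PTGES being on everywhere.

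**Figure D1:**
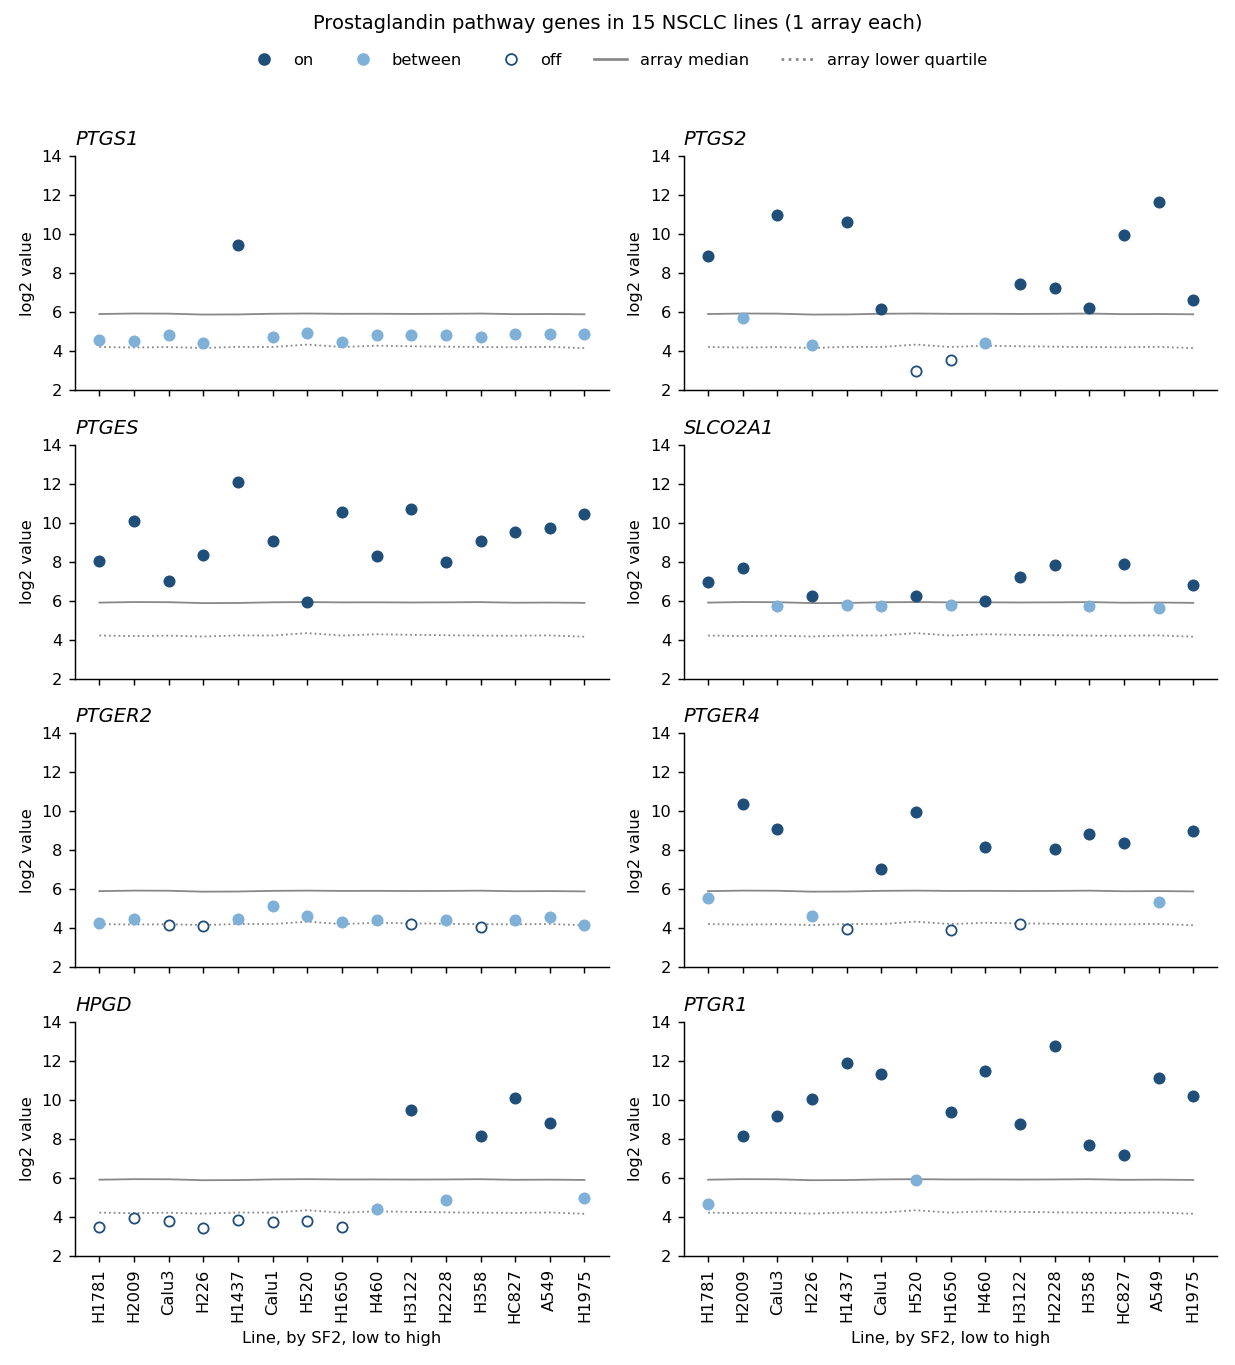
Log2 value (y axis) of each of the 8 genes in the 15 lines (x axis, ordered by SF2 from low to high), 1 point per line and array; dark points are on, light points between and open points off, and the grey lines give the median (solid) and lower quartile (dotted) of each array. HPGD was on only in H3122, H358, HC827 and A549 and PTGS1 only in H1437. PTGS2 ran from 3.0 to 11.65 and PTGER4 from 3.90 to 10.39.

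Of the 2 receptors, PTGER4 was on in 9 lines and PTGER2 in none. PTGER2 had a lowest value of 4.05 in H358, a median of 4.42 and a highest value of 5.13 in Calu1. Its second probe set also put no line above the array median, and there Calu1 (5.29) and A549 (4.99) stood above the other lines, whose highest value was 3.85 in HC827. Calu1 was above its lower quartile of 4.22 on both probe sets, so not being on is not the absence of signal. PTGER4 was on in these lines: H2009 (10.39), H520 (9.96), Calu3 (9.07), H1975 (9.0), H358 (8.84), HC827 (8.39), H460 (8.19), H2228 (8.05) and Calu1 (7.05). H1781 (5.57), A549 (5.33) and H226 (4.63) lay between the limits, and H3122 (4.21), H1437 (3.97) and H1650 (3.90) were off. The second probe set of PTGER4 was dimmer, with H520 alone on at 6.38, and followed the first with r = 0.87 over the 15 lines. The brightest probe set of PTGER4 is of a kind that can bind transcripts of more than a single gene. PTGS2, on in 10 of the 15 lines, and PTGER4, on in 9, were on together in 6, and no link is read from this count. Of the 3 lines with the most PTGS2, Calu3 was among these 6 and A549 and H1437 were not. H2009, H520 and H460 had PTGER4 on and PTGS2 not on.

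SLCO2A1, the carrier that brings prostaglandins into the cell, averaged 6.48 ± 0.84 (SD, n = 15 lines), and 32.4% of genes had a wider range. Its levels lay close to the array medians, with HC827 (7.90), H2228 (7.82) and H2009 (7.69) highest and A549 lowest at 5.61. The 6 lines that were not on had values of 5.61 to 5.79, so the limit cuts through a dense part of the scale. Its other probe sets put 3 lines (H2009, H3122 and HC827) and 0 lines on.

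HPGD fell into separate sets of lines with a wide gap between them. HC827 had the highest value at 10.08, followed by H3122 (9.47), A549 (8.81) and H358 (8.14), and these 4 lines were on. H1975 (4.95), H2228 (4.85) and H460 (4.41) lay between the limits. The 8 lines H2009, H1437, Calu3, H520, Calu1, H1781, H1650 and H226 were off, at 3.45 to 3.96. The gap between the lowest line that was on and the next line was 3.19 on the log2 scale, and the range of 6.63 was exceeded by 2.37% of genes. All 8 probe sets of HPGD put the same 4 lines on and no other, and the other 7 followed the brightest with r of 0.98 or more over the 15 lines. Probe sets of a gene read the same RNA on the same array, so they are not replicates, and several of these are of a kind that may bind other sequences. The lines between the limits were less even: H2228 ran from 3.64 to 4.85 and H1975 from 3.52 to 5.34 over the 8 probe sets. H460 ran from 3.24 to 4.41 and was off, under its lower quartile of 4.29, on all but the brightest. The other 7 probe sets put 9 to 11 lines off in place of 8. Of the 10 lines with PTGS2 on, HPGD was on in 4, off in 4 (H1781, Calu3, H1437 and Calu1) and between in 2 (H2228 and H1975). By the brightest probe set of each gene, no line had HPGD on without PTGS2. The dimmer PTGS2 probe sets did not put H358 on, and the dimmest did not put H3122 on either. With PTGS2 on in 10 of the 15 lines, no link is read from this overlap. Counted over all 8 genes, a line had between 2 (H1650) and 6 (HC827) on. As on means above the array median of all probe sets, about 50% of probe sets are on in any given line by definition. The genes were read on their brightest probe set, so the share over genes can be higher. Of 18132 genes, 11576 were on in at least 3 lines. No more is read from the number of the 8 genes on in a line.

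**Figure D2:**
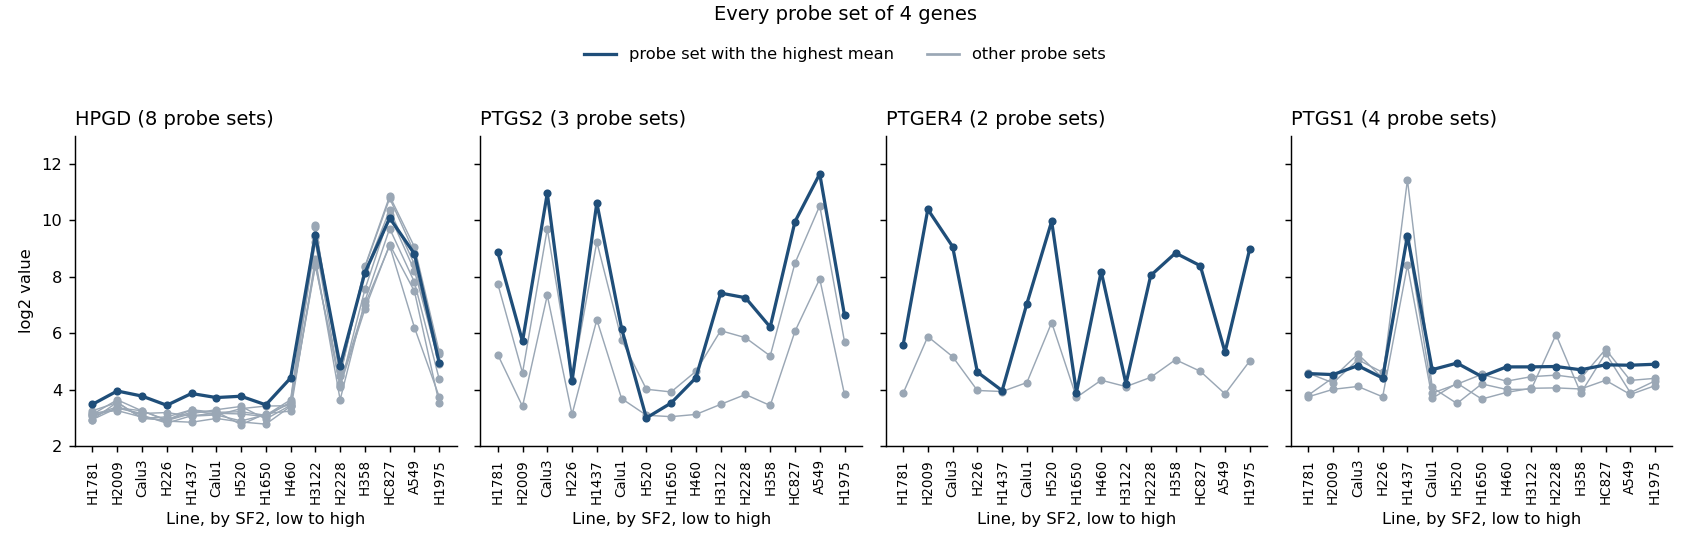
Log2 values (y axis) of every probe set of HPGD, PTGS2, PTGER4 and PTGS1 in the 15 lines (x axis, ordered by SF2 from low to high); the dark trace is the probe set with the highest mean and the grey traces are the others. The 8 HPGD traces rise in the same 4 lines, while the 3 PTGS2 traces keep nearly the same order of lines at different brightness.

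PTGR1, which reduces the oxidised prostaglandin and also inactivates leukotriene B4, had a single probe set. It ran from 4.67 in H1781 to 12.78 in H2228, a range of 8.11 that 0.734% of genes exceeded. After H2228 the highest lines were H1437 (11.91), H460 (11.48), Calu1 (11.31) and A549 (11.11), and the median was 9.36. H520 (5.88) and H1781 lay between the limits and the other 13 lines were on. The enzymes of breakdown were highest in different lines: HC827, the line highest in HPGD, had 7.17 for PTGR1, and only H520 and H1781 were lower. Of the other lines with HPGD on, A549 had 11.11 for PTGR1, H3122 8.77 and H358 7.69.

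The levels of the 5 genes with a continuous spread (PTGS2, PTGES, PTGER4, SLCO2A1 and PTGR1) were set against each other in 10 pairs. Over the 15 lines none of the pairs had a Pearson r of 0.5 or more in size. The strongest was PTGES with PTGER4, at r = -0.49 and Spearman rho = -0.47 over 15 lines, and r was -0.22 without H1437 and H520, the lines farthest from the median of PTGES. PTGS2 with PTGES had r = 0.25 and rho = 0.16, and r was 0.48 without A549 and Calu3. Without the same lines r of PTGS2 with SLCO2A1 was 0.38, against 0.037 over all 15, and without H2228 and HC827 r of SLCO2A1 with PTGR1 was -0.45, against -0.23 over all 15. The points of all such comparisons share the platform and the normalization, and no p is given for them.

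The genes around the 8 were read from lists of 8 to 14 genes, set beside the median log2 range of 1.6 over all genes. The median range was 0.763 for enzymes that release arachidonic acid, 2.33 for other synthases, 0.593 for other receptors, 4.25 for other transport and breakdown and 1.03 for the leukotriene branch. It was 5.05 for NRF2 targets, 5.96 for cytokines linked to COX-2 and 4.10 for genes that respond to cAMP. Genes off in some lines and on in others numbered 1 of 11, 2 of 9, 1 of 8, 2 of 7 and 2 of 10 in the first 5 lists, and 3 of 13 (AKR1B10, AKR1C1 and ME1), 1 of 11 (PLAU) and 2 of 8 (NR4A3 and PDE4B) in the last 3, beside the 9.36% of all genes. Of 11 phospholipases measured, 1 was off in some lines and on in others. This was PLA2G4A, the cytosolic enzyme that releases arachidonic acid, which ran from 2.90 in H1650 to 11.14 in H1437. PLA2G6 and PLA2G12A were on in all 15 lines, and PLA2G10 in 5. Of 9 other synthases measured, PTGES2 and PTGES3 were on in all 15 lines. HPGDS, the prostaglandin D synthase of blood cells, was on in H460 alone, at 10.04 with 3.76 to 4.30 in the other lines, and PTGIS, the prostacyclin synthase, was on in H226 alone, at 7.87 with a median of 4.53. AKR1C3, an aldo-keto reductase that makes prostaglandin F, ran from 5.67 in H1975 to 14.10 in A549, and its probes may also bind close paralogs. CBR1, which reduces prostaglandin E, was lowest in Calu1 at 4.69 and highest in H1437 at 10.91.

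The other receptors varied less. Of 8 listed genes, 4 (PTGER3, PTGDR, PTGFR and PTGIR) were on in no line, and PTGER1, the EP1 receptor gene, was on in H1975 alone, at 6.68 with a median of 5.47. PTGDR2 and TBXA2R were on in every line but spanned only 0.502 and 0.624, so their signal hardly varied. PTGFRN, which binds the prostaglandin F receptor and is not itself a receptor of prostaglandins, ran from 4.12 in Calu1 to 10.03 in H1437. Among carriers and enzymes of removal, ABCC4, which exports prostaglandins, was on in 13 of 15 lines, lowest in H1437 at 5.03 and highest in H3122 at 11.52. SLCO1B3 was on in 5 lines with Calu1 highest at 9.54, and CYP4F11 in 4 lines with H460 highest at 10.27. In the leukotriene branch ALOX5 was on in HC827 alone, at 6.53 with a median of 4.35, and CYSLTR1 in H358 alone, at 6.18 with a median of 3.49, while LTA4H was on in all 15 lines.

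Of the genes whose SD over the lines was at least 1, 2669 in all, PLA2G4A was the fifth most like PTGS2, with r = 0.76 and rho = 0.73 over 15 lines and r = 0.70 without A549 and Calu3. A549 had values of 11.65 for PTGS2 and 10.90 for PLA2G4A, and H1437 had 10.62 and 11.14. H1650 had 3.53 for PTGS2 and 2.90 for PLA2G4A, and H226 had 4.31 and 3.74. H460 departed from this order, with 4.42 for PTGS2 and 8.34 for PLA2G4A. The 4 genes before it were MTUS1, APOC1, RERG and FLRT3, with r from 0.77 to 0.80. Among 11 genes that induce PTGS2 or are induced with it, r with PTGS2 was 0.65 for CXCL2 and 0.63 for CXCL1, both chemokines of neutrophils, and under 0.5 for the other 9, with -0.21 for IL1B and -0.29 for IL6. Without A549 and Calu3 r was 0.52 for CXCL2 and 0.43 for CXCL1. The median r of this list was 0.079, beside -0.021 over all genes. Of 8 genes that respond to cAMP, the messenger of EP2 and EP4, none reached 0.5 with PTGS2, where 2.63% of all genes did, and the median r was 0.18. With PTGER4, 7 of the 8 had a negative r and the median was -0.29, beside -0.012 over all genes. The median rho with PTGER4 was -0.195. Without H1437 and H1650, the lines farthest from the median of PTGER4, most of these r lay nearer to 0. That of NR4A3 went from -0.31 to -0.055 and that of CREM from -0.31 to -0.18. That of NR4A2, the largest of the list in size, moved less, from -0.515 to -0.44. In contrast, r of CCND1 went from -0.13 to -0.33.

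**Figure D3:**
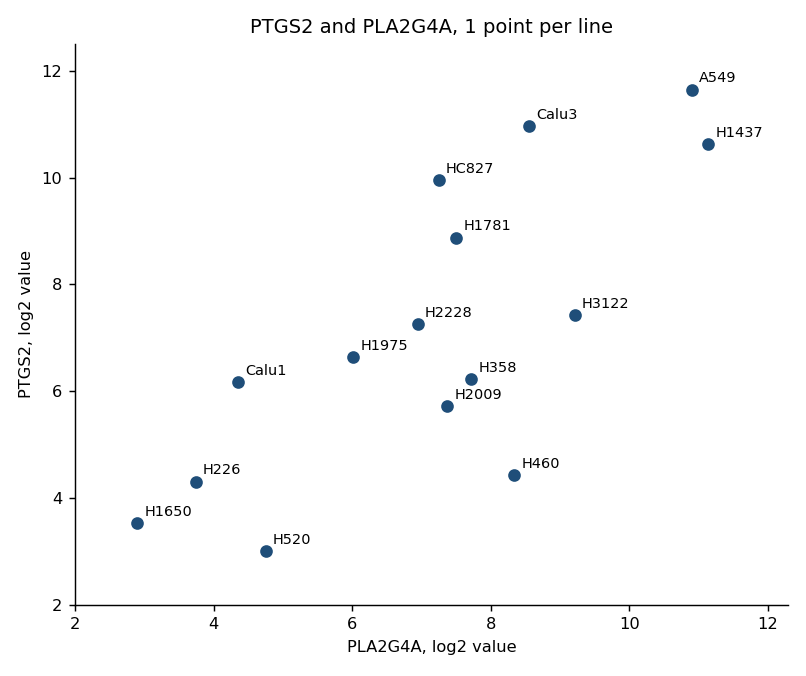
Log2 value of PTGS2 (y axis) against that of PLA2G4A (x axis), 1 labelled point for each of the 15 lines. H1650, H226 and H520 lie at the low end of both genes and A549, H1437 and Calu3 at the high end of PTGS2, with H460 below the others of like PLA2G4A level (r = 0.76).

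PTGR1 was set beside targets of NRF2, the transcription factor of the antioxidant response, of which PTGR1 is itself a known target. Of 13 such genes measured, 8 had r of 0.5 or more with PTGR1, among them TXNRD1 (0.71), GCLM (0.69), AKR1B10 (0.67) and HMOX1 (0.58), where 3.5% of all genes reached that r. The median r over the list was 0.56, beside -0.033 over all genes. GCLC was the member with a negative r, at -0.38. Without H1781 and H520, the lines lowest in PTGR1, r was 0.50 for TXNRD1, 0.66 for GCLM, 0.58 for AKR1B10 and 0.52 for HMOX1. That of UGDH also fell, from 0.64 to 0.48. For the other genes of the list r rose, as from 0.44 to 0.79 for AKR1C1, 0.36 to 0.64 for SLC7A11 and 0.55 to 0.71 for NQO1. That of GCLC went from -0.38 to -0.077. AKR1B10, an aldo-keto reductase, had 14.23 in A549, 14.16 in H1437, 13.85 in H460 and 12.99 in H2228, which are 4 of the 5 lines with the most PTGR1. Calu1, the other of these 5, had 5.13. The genes most like PTGR1 over all 2669 were TIMP1 (r = 0.84), GNB4 (0.79), PALLD (0.77), PTPRM (0.77) and SLC22A4 (0.77), none of them in the NRF2 list.

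**Figure D4:**
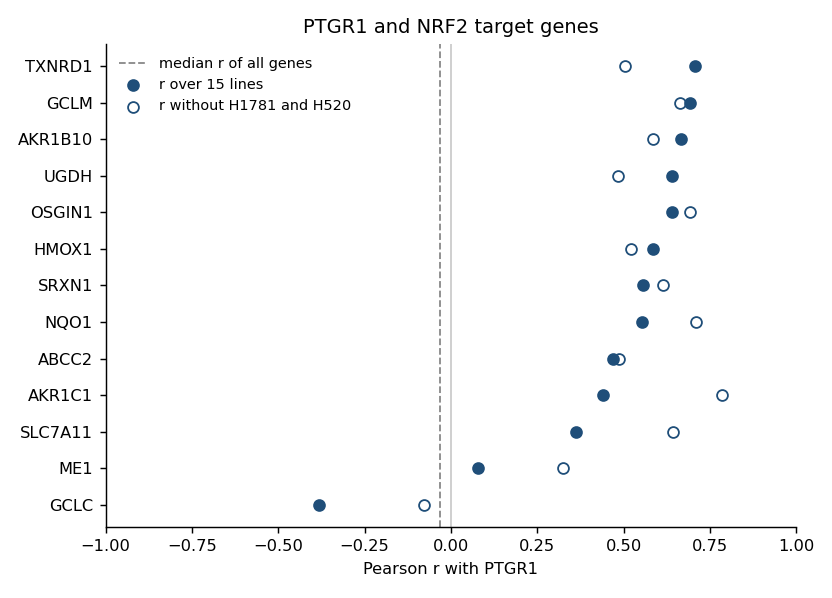
Pearson r with PTGR1 (x axis) of the 13 NRF2 target genes measured (y axis), over 15 lines (filled points) and without H1781 and H520 (open points); the dashed line is the median r of all genes. Of the filled points 8 lie at 0.5 or more and GCLC lies below 0.

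As HPGD fell into separate sets of lines, r serves here only as a measure of likeness. The genes most like HPGD over 15 lines were MUC5B, a secreted mucin (r = 0.85, rho = 0.73), ABCA12 (0.79), CEACAM5, a surface glycoprotein of epithelia (0.76), ZNF30 (0.74) and FMO5 (0.74). Without H3122 and HC827, the lines farthest from the median of HPGD, r was 0.70 for MUC5B, 0.60 for CEACAM5 and ZNF30, 0.40 for ABCA12 and 0.33 for FMO5. MUC5B was highest in H3122 (9.89), A549 (9.66) and HC827 (9.59), which are 3 of the 4 lines with HPGD on, and had 6.98 in H358, the remaining one. H1781 (7.70) and H2228 (7.61) had more MUC5B than H358. The genes most like PTGES were H2BC12, P2RY6, PDK3, C11orf86 and FAM83A, with r from 0.77 to 0.80.

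The order of the lines by SF2, the surviving fraction of cells after 2 Gy of radiation, comes from the colony counts of the study, except that of H520, which came from the literature. Values of SF2 were not used here, only the place of each line in that order, from 1 (H1781, lowest survival) to 15 (H1975, highest). The paper gives a spread for most of its SF2 values and says that published values differ somewhat. The order of neighbouring lines is therefore uncertain, and that uncertainty is not part of the places or slopes given here. By its brightest probe set, HPGD was off in the 8 lines at places 1 to 8 and between in those at 9, 11 and 15. It was on in those at 10 (H3122), 12 (H358), 13 (HC827) and 14 (A549). The line of highest survival, H1975, thus had little HPGD signal. As HPGD was selected on a difference of this kind and its lines fall into separate sets, neither a correlation nor a test is given for it. Each of the 3 squamous lines was off for HPGD: H226 at place 4, Calu1 at 6 and H520 at 7. Lines of other histology were off at places 1, 2, 3, 5 and 8. The parts of histology and of place in the HPGD pattern were not tested. PTGS1 was on at place 5 alone.

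No relation to the order was detected for the other 7 genes. In limma's fit of the log2 value on the place over all genes, 0 of 18132 genes had an adjusted p under 0.05 (0%), and 691 had an unadjusted p under 0.05 (3.81%). None of the 7 was among the latter. HPGD is part of the fit over all genes, here and in the alternatives, and the counts are not read as a test of it. The largest slopes were those of PTGR1, at 0.14 per place (SE 0.13, adjusted p = 0.999 from limma), and PTGES, at 0.084 per place (SE 0.090, adjusted p = 0.999). The slope of PTGR1 rested on H1781, the line lowest in PTGR1 and with the most uneven actin signal: without it the slope was 0.024, under those of PTGES (0.067) and PTGS2 (0.13) in the same fit. PTGS2 had a slope of 0.059 per place (SE 0.16, adjusted p = 0.999), which was -0.021 without the 3 squamous lines and -0.053 without A549. Spearman rho with the order was 0.41 for PTGS1, 0.27 for PTGES, 0.22 for PTGR1, 0.16 for PTGS2, 0.00 for PTGER4, -0.01 for SLCO2A1 and -0.04 for PTGER2. The rho of PTGS1 rests on lines that were not on, which span 4.41 to 4.94, and is opposite in sign to its slope of -0.029 per place (SE 0.072, adjusted p = 0.999 from limma). Without H1437 that slope was 0.022 (SE 0.010, adjusted p = 0.998 from limma). The PTGS2-high lines stood at both ends of the order, with H1781 at 1, Calu3 at 3 and H1437 at 5, and HC827 at 13 and A549 at 14. With 15 lines the standard errors exceeded the slopes of PTGS2, PTGER4 and SLCO2A1 by more than 2 times, and the fit does not show that slopes were absent. Of the 77 other genes of the lists that were measured, 1 had an unadjusted p under 0.05, VEGFA, at -0.12 per place (SE 0.043, adjusted p = 0.999 from limma).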

How the data were processed

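Expression was measured in 15 NSCLC lines on Affymetrix PrimeView arrays, 1 per line. The deposited table holds log2 values for probe sets, which the authors made by RMA. The submitters' processing notes name affy 1.64.0. RMA corrects background, equalises the arrays and summarises the probes of a set, so differences in total signal are removed. The labels name biotin and Trizol, whereas the methods name Cy3 or Cy5 and a reference RNA, and no ratio was formed here. Batches were not known, and precision is limited by having 15 arrays.

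After 100 ERCC and 102 AFFX controls had been removed from 49495 probe sets, 49293 remained, of which 44988 had 1 gene in the platform annotation, 1832 several and 2473 none. Only the first kind was used, and 44961 matched a gene ID of GRCh38.p14 in the reference table. The probe set with the highest mean stood for each of 18132 genes. The series matrix values differed from the table by at most 5e-09. The labels give no radiation groups, so none were formed, and the lines were ordered by published SF2.

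Slopes on that order came from limma 3.58.1 (lmFit and eBayes, R 4.3.3) with Benjamini-Hochberg adjustment over all genes. A trial on simulated data required only that the median fitted slope lay near the known slope. The share of known slopes it detected is not given here. Other values came from Python 3.11.15, numpy 2.4.6, pandas 2.3.3 and scipy 1.17.1, with figures from matplotlib 3.10.9. The alternatives covered the limits for on and off, the probe set per gene, scaling, histology, array weights and each line left out. The members and lists were chosen with earlier results of these data known. The named genes are the 8 members, up to 4 on-off genes per list by range and 2 by the p of the slope, and the 5 genes of SD at least 1 with the highest r for HPGD, PTGS2, PTGES and PTGR1. ERBB2, EGFR, FGFR1 and ALK were checks of the lines. Further list genes were picked with their values known, and some genes under this rule were omitted. Sequences are RefSeq windows of GRCh38.p14, and the array's own build is not given in the sources used here.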

Additional observations from a re-analysis of the deposited data

How the results depend on the processing

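The count of members off in some lines and on in others was 3, and it was 4, with PTGS1 added, with the off limit at the 30th percentile, with the mean of the probe sets and with the probe set of largest SD. HPGD was on in 4 lines at every limit and choice of probe set. It was on in 3 of 13 lines without H1781 and H3122, the lines of uneven actin signal, an alternative chosen after seeing the data. PTGS2 was on in 5 lines and SLCO2A1 in 4 by the mean of the probe sets, and PTGS1 in 2 lines by the probe set of largest SD and in 0 without H1437. In every alternative fit of the order by SF2, limma called 0 genes at an adjusted p under 0.05, with a lowest adjusted p of 0.134 (without H2009) and 454 to 981 genes at an unadjusted p under 0.05. Slopes near 0 changed sign. That of PTGS2 was -0.021 without the 3 squamous lines and -0.025 with squamous histology as a covariate. That of PTGER2, -0.0049, became 0.0023 with that covariate, 0.014 by the mean of the probe sets and 0.032 by the probe set of largest SD. With each line left out in turn, slopes ran from -0.052 to 0.022 for PTGS1 (positive without H1437), -0.053 to 0.15 for PTGS2 (negative without A549), -0.011 to 0.00090 for PTGER2, -0.010 to 0.14 for PTGER4 (negative without H1975) and -0.015 to 0.048 for SLCO2A1 (negative without Calu3, H2228 or HC827). They stayed positive for PTGES, at 0.049 to 0.12, and for PTGR1, at 0.024 (without H1781) to 0.20. Without H1781 and H3122 that of PTGR1 was 0.031. The cause was not tested. No paired analysis was possible because the lines form a single group. RMA compresses low signals, so differences among lines that were off carry little weight, and with 1 array per line no difference between single lines could be tested.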
